A study of Homo sapiens with 12 samples.

Results

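The genes for the protein machinery of pre-mRNA splicing were taken by symbol. Protein-coding genes on chromosomes 1 to 22 and X whose symbol starts with SRSF, SF3A, SF3B, HNRNP, SNRP or PRPF were used, without SNRPN, which gave 70 genes out of 19974. They comprise 11 genes for proteins of small nuclear ribonucleoprotein particles (SNRP), 9 for the SF3A and SF3B subunits of the U2 particle, 12 PRPF genes, 12 genes for SR proteins (SRSF) and 26 for hnRNP proteins (HNRNP). The rule used names only and no measured value. The study mapped histone modifications in KBM-7, an established human cell line from a chronic myeloid leukaemia in blast crisis that carries nearly every chromosome in a single copy, grown in medium with fetal calf serum and given no treatment that the labels name. Chromatin immunoprecipitation followed by sequencing was done in 1 library for each of 9 marks (H3K4me3, H3K9ac, H3K27ac, H3K4me2, H3K4me1, H3K79me2, H3K36me3, H4K16ac and H3K27me3), and 3 further libraries were inputs. The deposited values are called intervals of each mark with no count or score, so the depth is unknown, no mark has a replicate, and no test could be made: each count below describes these libraries and stands beside the same count over all protein-coding genes.

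Splicing removes introns from precursor RNA. The U1 and U2 particles find the 5′ splice site and the branch point, the tri-snRNP of U4, U6 and U5 joins them, and the assembled spliceosome is rearranged into its active form. SR proteins mostly promote the use of nearby splice sites and hnRNP proteins, abundant RNA-binding proteins that coat nascent transcripts, often oppose it. Among the marks, H3K4me3, H3K9ac and H3K27ac are typical of the starts of active genes, H3K4me2 of starts and enhancers, and H3K4me1 of enhancers and the flanks of starts. H3K79me2 is laid down by DOT1L over the first part of transcribed genes, H3K36me3 by SETD2 further along them, and H3K27me3 by the Polycomb complex PRC2 at silent genes. H4K16ac is an acetylation linked to open chromatin. In the deposited list its 45695 intervals were identical to those of H3K36me3, so both names stand for 1 set here and nothing below can be assigned to either alone.

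As a check of the cell type, early myeloid markers and markers of other lineages were read in the same way. Within 1 kb of the gene start, 10 of 10 myeloid markers (among them MYB, RUNX1 and SPI1) had H3K4me2, against 66.0% of all genes. H3K4me3 was there at 6 of the 10, near the 50.6% of all genes, so that count says little about the cell type. CD33, KIT, LMO2 and MPO had no H3K4me3 there. KIT alone among the 10 had H3K27me3 there. Of 15 markers of B and T cells, liver, neurons, epithelium and muscle, 1 (BCL11B) had H3K4me3 at the start (50.6% of all genes). Of the same 15, 10 had H3K27me3 there (28.6% of all genes). The others were B and T cell genes, among them CD3E, CD3G, CD79A and PAX5.

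Starts of 8 splicing factor genes are shown first, because they span the range from the widest H3K4me3 region to none. For each of the 5 groups a gene was taken that no other of its group exceeded in the width of the H3K4me3 region at the start (SNRPA1, tied with SNRPB, then SF3B1, PRPF38B, SRSF3 and HNRNPK), and with them 3 genes without H3K4me3 within 1 kb of the start (HNRNPCL1, HNRNPH1 and PRPF40B). Each sequence is the 250 bases upstream of the start in RefSeq (GRCh38.p14), read 5′ to 3′ on the strand of the gene, with CpG dinucleotides in capitals.
SNRPA1 (chr15:101295249-101295498, minus strand): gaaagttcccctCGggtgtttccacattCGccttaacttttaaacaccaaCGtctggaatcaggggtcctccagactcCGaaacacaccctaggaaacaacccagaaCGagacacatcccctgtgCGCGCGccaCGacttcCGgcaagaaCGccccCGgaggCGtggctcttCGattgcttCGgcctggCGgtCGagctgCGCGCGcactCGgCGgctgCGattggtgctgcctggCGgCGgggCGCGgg
SF3B1 (chr2:197435029-197435278, minus strand): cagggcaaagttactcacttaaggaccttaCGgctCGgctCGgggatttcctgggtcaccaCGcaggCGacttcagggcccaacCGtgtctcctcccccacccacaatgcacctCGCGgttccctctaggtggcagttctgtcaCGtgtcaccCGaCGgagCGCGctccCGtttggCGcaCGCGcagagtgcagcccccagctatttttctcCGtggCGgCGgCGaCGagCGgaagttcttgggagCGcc
PRPF38B (chr1:108692060-108692309, plus strand): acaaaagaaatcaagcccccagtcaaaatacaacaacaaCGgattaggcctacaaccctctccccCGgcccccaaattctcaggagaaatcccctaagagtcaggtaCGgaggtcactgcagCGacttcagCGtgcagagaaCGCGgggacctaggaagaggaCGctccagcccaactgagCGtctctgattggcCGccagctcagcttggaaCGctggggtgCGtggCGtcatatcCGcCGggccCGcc
SRSF3 (chr6:36594112-36594361, plus strand): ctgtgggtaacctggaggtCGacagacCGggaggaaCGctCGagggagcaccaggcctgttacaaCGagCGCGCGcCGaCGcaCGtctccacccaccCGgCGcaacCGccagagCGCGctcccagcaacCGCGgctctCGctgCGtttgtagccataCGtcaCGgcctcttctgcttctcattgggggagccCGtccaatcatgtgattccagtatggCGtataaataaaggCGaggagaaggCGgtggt
HNRNPK (chr9:83980616-83980865, minus strand): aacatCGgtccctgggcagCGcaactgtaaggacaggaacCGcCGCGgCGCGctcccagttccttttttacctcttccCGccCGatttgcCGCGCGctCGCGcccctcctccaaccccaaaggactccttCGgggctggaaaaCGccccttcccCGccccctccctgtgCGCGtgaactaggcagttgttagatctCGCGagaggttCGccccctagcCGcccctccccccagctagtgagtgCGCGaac
HNRNPCL1 (chr1:12848721-12848970, minus strand): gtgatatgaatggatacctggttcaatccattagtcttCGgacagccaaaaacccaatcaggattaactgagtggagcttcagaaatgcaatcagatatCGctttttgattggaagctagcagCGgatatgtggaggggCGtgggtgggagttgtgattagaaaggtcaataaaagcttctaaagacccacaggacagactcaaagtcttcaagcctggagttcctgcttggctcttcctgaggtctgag
HNRNPH1 (chr5:179634785-179635034, minus strand): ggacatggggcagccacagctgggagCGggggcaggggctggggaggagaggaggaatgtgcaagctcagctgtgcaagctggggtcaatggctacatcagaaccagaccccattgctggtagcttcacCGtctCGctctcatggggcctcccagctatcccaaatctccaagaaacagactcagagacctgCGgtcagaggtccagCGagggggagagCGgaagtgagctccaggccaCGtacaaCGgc
PRPF40B (chr12:49623311-49623560, plus strand): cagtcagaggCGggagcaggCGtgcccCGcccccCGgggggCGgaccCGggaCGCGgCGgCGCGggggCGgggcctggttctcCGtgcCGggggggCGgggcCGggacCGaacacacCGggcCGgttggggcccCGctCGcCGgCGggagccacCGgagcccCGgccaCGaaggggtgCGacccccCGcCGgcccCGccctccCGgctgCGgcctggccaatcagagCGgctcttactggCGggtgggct

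The first 5 promoters hold between 16 CpG dinucleotides (PRPF38B) and 27 (SNRPA1) in 250 bases, with an observed to expected ratio of 0.748 to 1.09. HNRNPCL1 holds 4, with a ratio of 0.313, and HNRNPH1 holds 8, with a ratio of 0.343. PRPF40B differs from both: it holds 34 CpG at a G plus C share of 82.0% and a ratio of 0.813, although its start had no H3K4me3. A dense run of CpG was therefore present at 1 of the 3 starts without the mark. The PRPF40B sequence lies within the annotated gene span, since the start in the promoter table is 915 bp inside it.

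Nearly all splicing factor genes had the marks of active starts. H3K4me3 lay within 1 kb of the start at 63 of 70 genes (90%), against 50.6% of all protein-coding genes. H3K9ac lay there at 64 (91.4%, against 54.2%) and H3K4me2 at 65 (92.9%, against 66.0%). Over the gene span and 5 kb on either side the counts were 64 for H3K4me3 (against 58.4% of all genes), 65 for H3K9ac (62.9%) and 65 for H3K4me2 (78.2%). All 3 marks together stood at the start of 63 genes (90%, against 49.3%); the 7 others were HNRNPA1L3, HNRNPCL1, HNRNPCL2, HNRNPCL3, HNRNPCL4, HNRNPH1 and PRPF40B. The start is the 5′ end of the gene span. For 9 genes whose strand was not in the promoter table, among them HNRNPA1, SF3B3, SNRPD1 and SRSF2, both ends of the gene were counted.

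**Figure D1:**
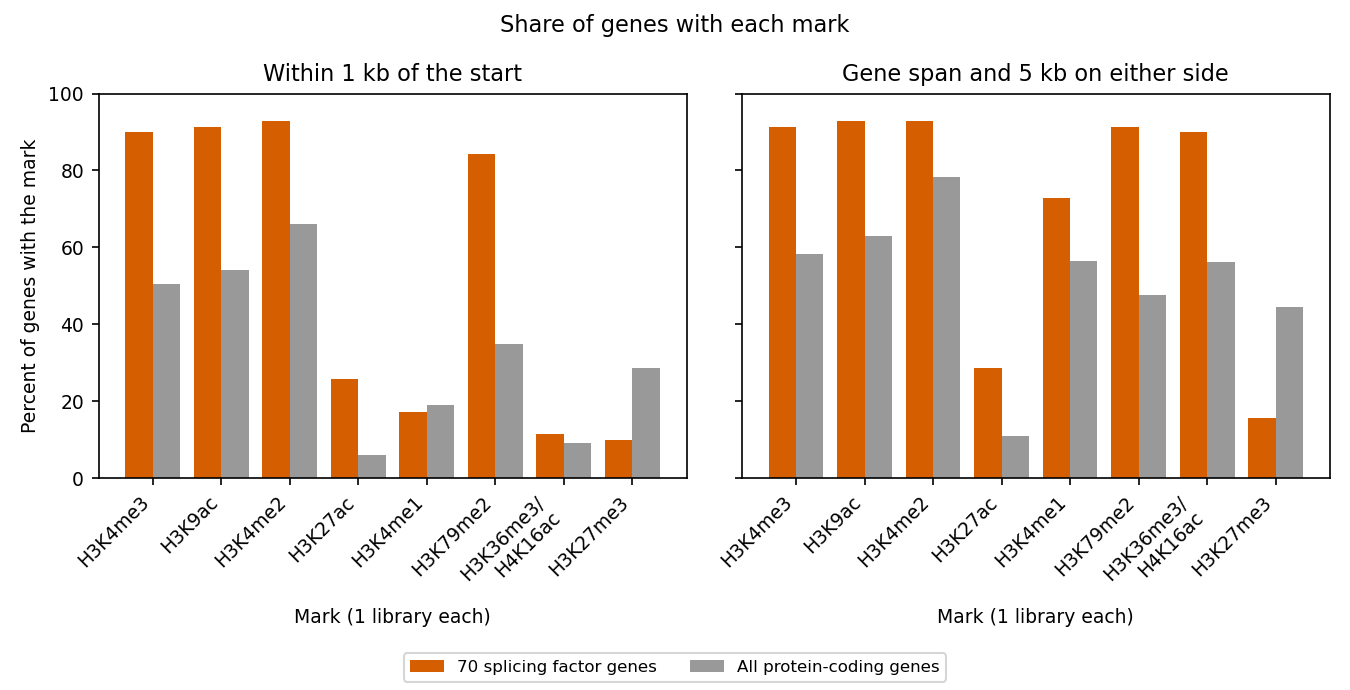
Percent of the 70 splicing factor genes (orange) and of all 19974 protein-coding genes (grey) with at least 1 bp of each mark, within 1 kb of the start on the left and over the gene span with 5 kb on either side on the right. Bars of the splicing factor genes reach 90% or more for H3K4me3, H3K9ac and H3K4me2 in both panels, and those of H3K27me3 stay below the bars of all genes.

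The marks of transcribed bodies were as frequent. H3K79me2 lay over the span and 5 kb on either side of 64 genes (91.4%, against 47.6%) and within 1 kb of the start of 59 (84.3%, against 35.0%). The H3K36me3/H4K16ac set lay over the span and 5 kb of 63 genes (90%, against 56.3%). At least 50 percent of the span was covered by H3K36me3/H4K16ac in 52 genes (74.3%, against 26.2%) and by H3K79me2 in 29 (41.4%, against 5.52%). Within 1 kb of the start the H3K36me3/H4K16ac set was found at 8 genes (11.4%, against 9.14%), a share near the background, and 6 of those 8 were genes whose both ends were counted. Among the 61 genes with a known strand it was 2 (SF3B4 and SRSF5, 3.28%, against 4.07% of all genes with a strand).

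H3K27ac was called far less often in this cell line, with 3368 regions in all, but more often at splicing factor genes than elsewhere. It lay over the span and 5 kb of 20 genes (28.6%, against 10.9%) and within 1 kb of the start of 18 (25.7%, against 6.02%). H3K4me1 lay over the span and 5 kb of 51 genes (72.9%, against 56.4%) but within 1 kb of the start of 12 (17.1%, against 19.0%), where it did not stand apart from other genes. H3K27me3 was the reverse of the active marks: 11 genes had it over the span and 5 kb (15.7%, against 44.4%), 7 within 1 kb of the start (10.0%, against 28.6%) and 4 within the span (5.71%, against 34.9%).

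The most frequent combination was H3K4me3, H3K9ac and H3K4me2 at the start with H3K79me2 and H3K36me3/H4K16ac in the span, and without H3K27ac or H3K4me1 at the start or H3K27me3 in the span. It was found at 36 of 70 genes (51.4%, against 21.0% of all genes). A further 14 genes had H3K27ac as well (20%, against 3.0%), 8 had H3K4me1 as well (11.4%, against 7.17%) and 3 had both (HNRNPH3, HNRNPL and SF3B4). These 61 genes (87.1%) share the 5 active sets, which 34.8% of all genes held. The other 9 genes are described one by one below.

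**Figure D2:**
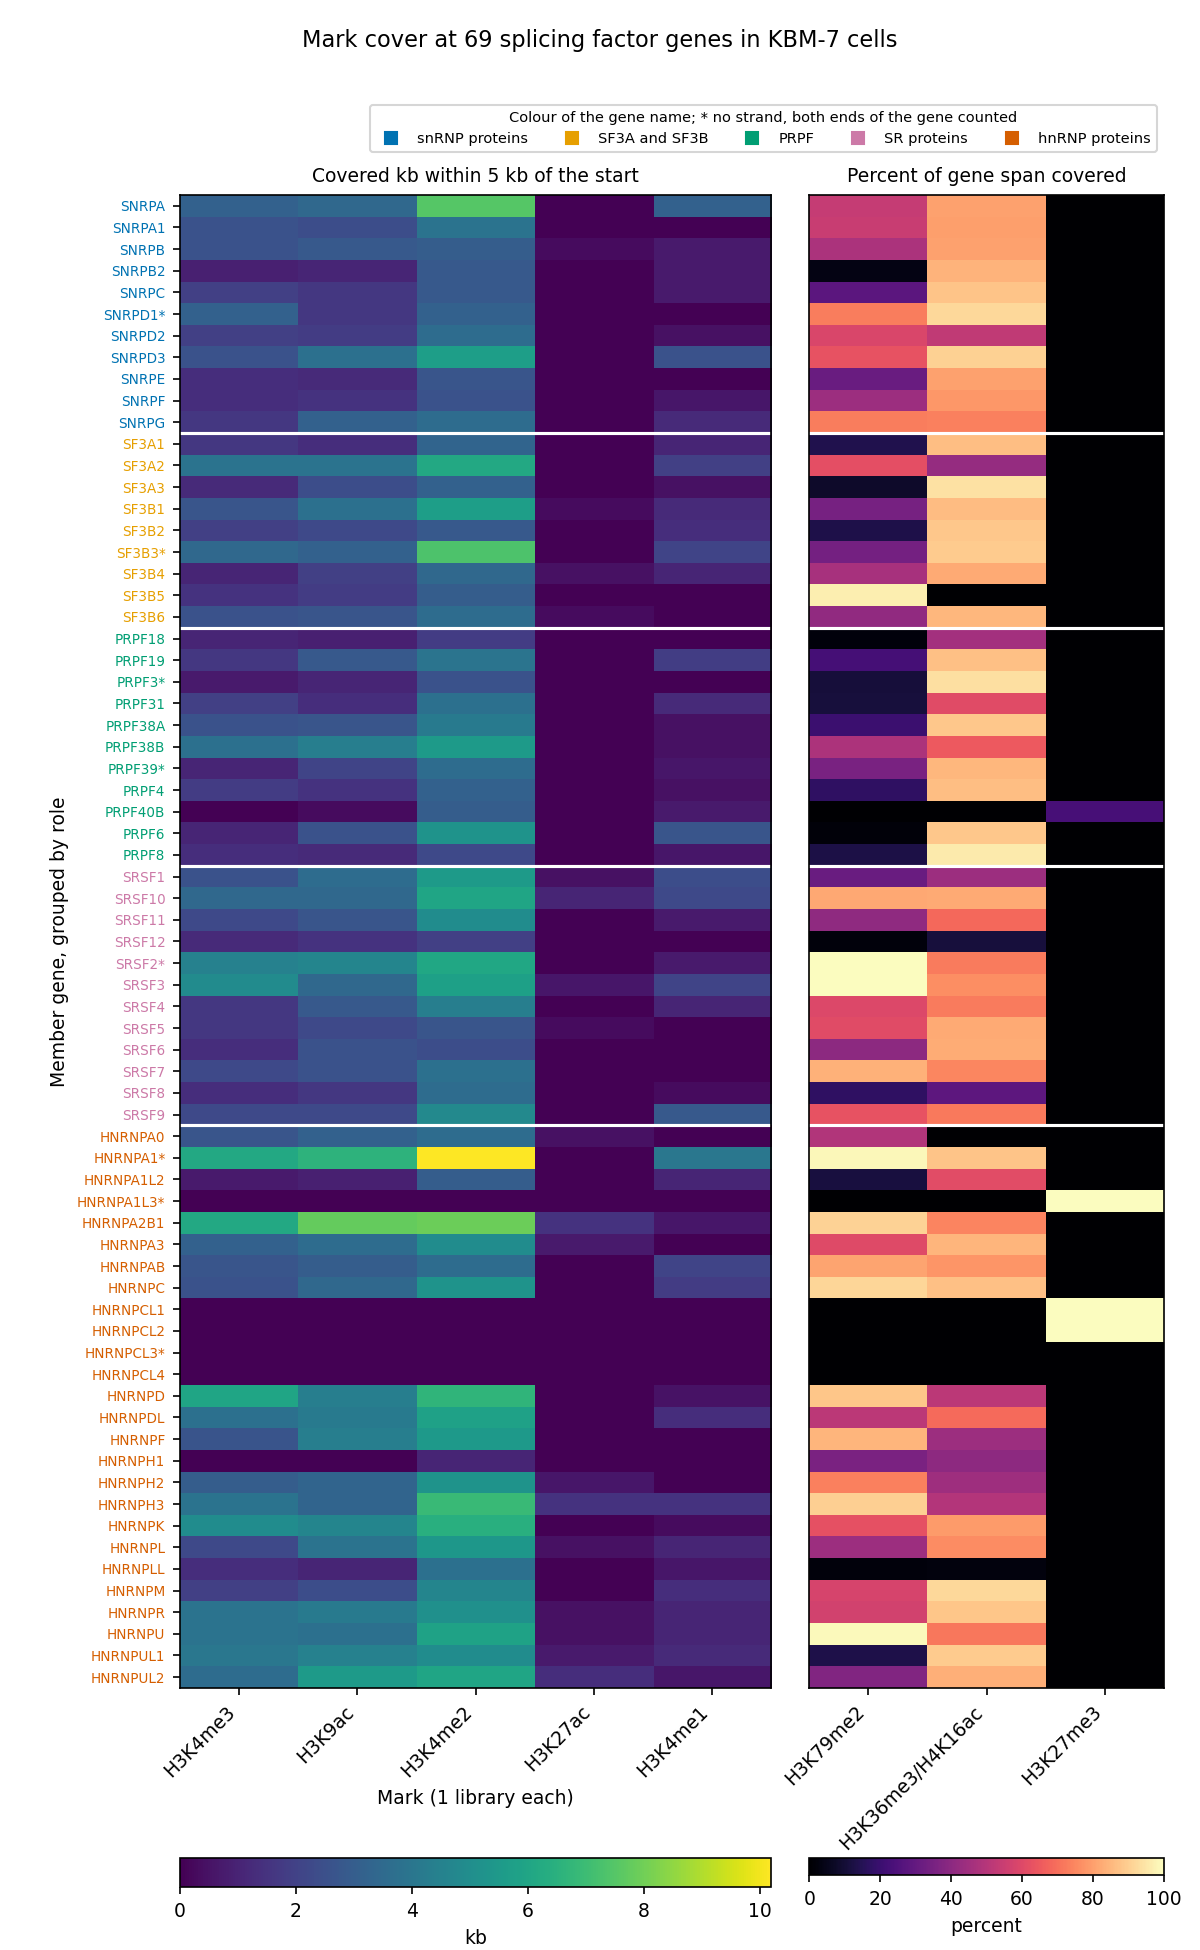
Each row is 1 of 69 of the genes, grouped by role and separated by white lines; the left panel gives covered kb within 5 kb of the start and the right panel percent of the gene span covered (an asterisk marks genes with both ends counted, whose windows are wider). Dark rows on the left are the HNRNPCL genes and HNRNPA1L3, and the bright cells of the H3K27me3 column are HNRNPA1L3, HNRNPCL1 and HNRNPCL2 at 100.0% of their span.

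The comparison was repeated among genes with H3K4me3 at the start (63 splicing factor genes and 10103 of all genes). H3K9ac was at 63 of 63 starts (100.0%, against 97.6%) and H3K4me2 likewise at 63 (against 99.9%), so these 2 marks no longer set the splicing factor genes apart. H3K79me2 was in the span of all 63 (100.0%, against 74.6%), H3K36me3/H4K16ac in 61 (96.8%, against 82.1%) and H3K27ac at 18 starts (28.6%, against 10.9%). H3K4me1 at the start was less frequent than among these genes (17.5%, against 26.6%), and H3K27me3 was in the span of 0 of 63, against 11.3%.

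Proteins of the snRNPs form the core of the particles: SNRPB, SNRPD1, SNRPD2, SNRPD3, SNRPE, SNRPF and SNRPG make up the Sm ring around the snRNAs, SNRPA and SNRPC belong to U1, and SNRPA1 and SNRPB2 to U2. All 11 genes had H3K4me3, H3K9ac, H3K4me2 and H3K79me2 at the start, and all 11 had at least 50 percent of the span under H3K36me3/H4K16ac (median 80.3%, from 52.4% in SNRPD2 to 92.0% in SNRPD1). Their H3K79me2 cover of the span ranged from 3.59% in SNRPB2 to 72.9% in SNRPD1, with a median of 53.9%. H3K4me3 within 5 kb of the start ran from 900 bp in SNRPB2 to 3150 bp in SNRPA, and to the same 3150 bp in SNRPD1 over both of its ends. SNRPB2 was thus the lowest of the group for both marks, while 84.2% of its span lay under H3K36me3/H4K16ac. SNRPB was the only snRNP gene with H3K27ac, a region of 300 bp just downstream of the start.

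The SF3A and SF3B subunits hold the U2 particle on the branch point, with SF3B1 as the large scaffold that encloses the branch helix. All 9 genes had the 3 active start marks and H3K79me2 there. H3K4me3 within 5 kb of the start was lowest in SF3B4, with 1050 bp, and highest in SF3A2, with 3900 bp. H3K79me2 cover of the span had a median of 34.7%, lowest in SF3A3 (8.17%) and highest in SF3B5 (96.7%), whose span is only 690 bp. H3K36me3/H4K16ac covered a median of 86.1%, up to 93.9% in SF3A3. SF3B5 went against this with 0.0% of its span: its 1500 bp of the set lay in the 5 kb beside the gene. H3K27ac was at the starts of SF3B1 (300 bp), SF3B4 (450 bp) and SF3B6 (300 bp).

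Many PRPF genes code for proteins of the tri-snRNP or of complexes that activate it. Among them are PRPF8, the core of the catalytic centre, PRPF3, PRPF4, PRPF6 and PRPF31 of the tri-snRNP, and the ubiquitin ligase PRPF19. Over the 12 PRPF genes H3K79me2 covered a median of 15% of the span, against 34.7% to 60.3% in the other 4 groups. The highest value was 48.0% in PRPF38B and the lowest above 0 was 1.73% in PRPF6. H3K27ac lay over the span and 5 kb of 0 of the 12 genes, a count near that of the snRNP genes (1 of 11) and near the 10.9% of all genes. H3K36me3/H4K16ac was nevertheless the broadest of any group, with a median of 86.4% and 96.0% in PRPF8, the highest value of all 70 genes. PRPF genes were also the longest, with a median span of 26890 bp against 9658 bp for SR protein genes, so a percentage of the span is not the same length in each group. In bp over the span and 5 kb, the H3K79me2 median of PRPF genes (3525 bp) was near that of SF3A and SF3B (3600 bp). It was below those of the other groups, which ran from 4650 bp (snRNP proteins) to 8893 bp (SR proteins). H3K4me3 within 5 kb of the start ran from 750 bp (PRPF3) to 3750 bp (PRPF38B) in the 11 genes that had it.

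SR proteins carry domains of arginine and serine repeats and bind exonic enhancers. All 12 genes had H3K4me3, H3K9ac and H3K4me2 at the start, and 10 had H3K79me2 there, the exceptions being SRSF8 and SRSF12. H3K4me3 was lowest in SRSF12, with 1200 bp within 5 kb of the start, and highest in SRSF3, with 4912 bp. H3K79me2 covered the whole span of SRSF2 and SRSF3 (100.0% each), 83.6% of SRSF7 and 81.7% of SRSF10, but 2.04% of SRSF12. The group had the highest median of H3K79me2 (60.3%) and an H3K36me3/H4K16ac median of 72.4%, from 11.3% in SRSF12 to 82.6% in SRSF6. H3K27ac was at the starts of SRSF1 (450 bp), SRSF3 (600 bp), SRSF5 (300 bp) and SRSF10 (1050 bp). SRSF12 and SRSF8 were the low end of the group for both body marks: SRSF8, at 17.2% and 28.2%, also has the fewest CpG of all 61 promoters in the table (3 in 300 bases).

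Among the 26 hnRNP genes, 20 had the 3 active start marks together. The largest H3K4me3 cover within 5 kb of the start was 6150 bp in HNRNPA2B1, the major partner of HNRNPA1, and the same in HNRNPA1 over both ends; HNRNPD, which binds AU-rich elements, followed with 6000 bp. HNRNPA2B1 also had 7800 bp of H3K9ac, 7901 bp of H3K4me2, 1500 bp of H3K27ac and 9101 bp of H3K79me2 within 5 kb, and no H3K27me3. Its start lies 697 bp from the start of CBX3 on the opposite strand, and of its start regions those of H3K9ac (4854 bp upstream) and H3K4me2 (804 bp) reached that far, while those of H3K4me3 and H3K79me2 (204 bp each) did not. The cover by H3K4me3, H3K9ac, H3K4me2 and H3K79me2 given above each exceeded the 5 kb inside the gene. Part of each therefore lay upstream, on the side of CBX3, and cannot be assigned to 1 gene. H3K79me2 covered 98.9% of HNRNPU, 98.8% of HNRNPA1, 91.6% of HNRNPC and 91.0% of HNRNPA2B1, and H3K36me3/H4K16ac 92.0% of HNRNPM, 89.1% of HNRNPUL1 and 87.9% of HNRNPR. In HNRNPC, which binds uridine tracts in introns, the set H3K36me3/H4K16ac covered 86.8% of a span of 60296 bp, and 47300 bp were under both.

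H3K27ac at the start was found at 10 of 26 hnRNP genes, against 6.02% of all genes. SR protein genes (4 of 12) and SF3A and SF3B genes (3 of 9) came close to the hnRNP share. The hnRNP genes were HNRNPA0, HNRNPA2B1, HNRNPA3, HNRNPH2, HNRNPH3, HNRNPL, HNRNPR, HNRNPU, HNRNPUL1 and HNRNPUL2. HNRNPH1 and HNRNPM had H3K27ac farther away. The 18 regions at starts were narrow, with a median of 450 bp and a range of 300 to 1500 bp, the widest in HNRNPH3. They did not lie on the start itself in most cases: of the 20 genes with H3K27ac, 3 had a region across the start, 10 had the nearest region upstream of it and 7 downstream. With an overlap of at least 500 bp in place of 1 bp the count at the start fell from 18 to 7 genes (10.0%, against 3.03% of all genes), and with the wider H3K27ac regions alone it was 8 (11.4%, against 3.33%).

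The H3K4me3 regions of splicing factor genes were wide. The region at the start had a median width of 1800 bp over 63 genes, from 750 to 4650 bp, and 1050 bp over the 10103 genes of the annotation with such a region. At 26 of the 63 genes (41.3%) it was at least 2250 bp wide, the width from which the widest 10.9% of all genes lie. The widest were in SRSF3 (4650 bp) and HNRNPK (4350 bp). Those below the general median were 5: HNRNPA1L2, HNRNPF, HNRNPL and PRPF3 (750 bp each) and SNRPB2 (900 bp). HNRNPF and HNRNPL had further H3K4me3 regions, with 2665 and 2250 bp in all within 5 kb of the start. HNRNPA1L2, PRPF3 and SNRPB2 had no more there than the region at the start. The medians by group were 1350 bp for SF3A and SF3B and for PRPF, 1500 bp for snRNP proteins, 2025 bp for SR proteins and 2625 bp for hnRNP proteins. H3K9ac regions were at least 2850 bp wide at 18 of 64 genes (28.1%, against 10.1%), while H3K4me2 regions were at least 3900 bp wide at 4 of 65 (6.15%, against 10.2%). H3K79me2 regions were at least 10800 bp wide at 12 of 59 genes (20.3%, against 10.0%). Single regions were thus wide for H3K4me3, H3K9ac and H3K79me2 and not for H3K4me2. A region is an unbroken stretch, and H3K4me2 dipped at the start (given below), so the width of its region is not its full extent. Among genes with H3K4me3 at the start, H3K4me2 covered a median of 4200 bp within 5 kb, against 3600 bp in all such genes.

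The 5 genes whose promoters are printed above with H3K4me3 differed in where that region lay. In SRSF3, which also regulates its own splicing, it reached from 61 bp upstream to 4588 bp downstream of the start, and in SF3B1 from 7 bp upstream to 2692 bp downstream. In HNRNPK, which binds C-rich RNA, it reached 935 bp upstream and 3414 bp downstream. The corresponding distances were 1259 and 2490 bp in PRPF38B and 802 and 1747 bp in SNRPA1. The region lay almost wholly inside the gene in SRSF3 and SF3B1, and across both sides of the start in the others. HNRNPK overlaps RMI1, which starts on the opposite strand within 1 kb, and the region covers both starts. Over 56 genes with a known strand the medians were 85 bp upstream and 1492 bp downstream. H3K79me2 within 5 kb of these 5 starts ran from 4903 bp in SNRPA1 to 9551 bp in HNRNPK, and H3K36me3/H4K16ac from 908 bp in SF3B1 to 2386 bp in HNRNPK.

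**Figure D3:**
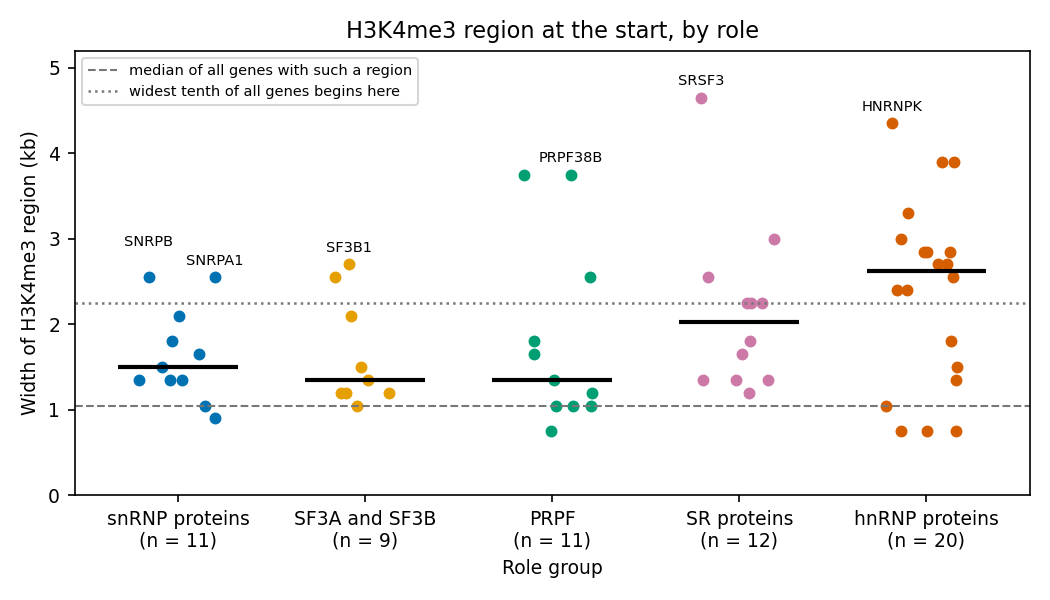
Width in kb of the H3K4me3 region at the start for the 63 splicing factor genes that had one, 1 point per gene, with the median of each role group as a black bar. The dashed line at 1.05 kb is the median of all genes with such a region and the dotted line at 2.25 kb the width from which their widest 10.9% lie; 26 points lie on or above the dotted line.

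How the marks followed each other was read from the genes with a known strand, H3K4me3 at the start and a span of at least 10 kb (40 splicing factor genes and 6673 of all genes). H3K4me3 covered a mean of 91.0% of the first 250 bp downstream of the start, against 79.7% in all genes, 42.0% of the 250 bp that begin 2000 bp downstream, against 9.77%, and 9.36% of those at 5000 bp, against 1.73%. The gap between the groups was thus larger 2 kb into the gene than at the start. H3K4me2 dipped on the first 250 bp (37.1%, against 59.6%) and was high on both sides of it, at 85.0% from 1000 bp upstream and 93.2% from 1000 bp downstream. H3K27ac was highest between 750 and 500 bp upstream, at 18.9%, against at most 3.85% in all genes. H3K4me1 was at 0.0% on the start and highest between 1500 and 1750 bp downstream (28.9%, against 16.9%).

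H3K79me2 rose within the first bases of the gene. It covered 13.1% of the last 250 bp before the start, 50.6% of the first 250 bp after it (20.1% in all genes) and 88.5% at its highest, between 500 and 750 bp (at most 59.9% in all genes). It then fell to 59.8% at 5000 bp and 40% just before 10 kb, where all genes stood at 34.2% and 20.1%. H3K36me3/H4K16ac took the opposite course: 0.0% on the start, 31.5% at 2000 bp, 80% at 5000 bp and 92.5% at its highest, between 6500 and 6750 bp, where all genes did not exceed 48.5% within 10 kb. The first H3K36me3/H4K16ac base within the span lay a median of 2462 bp from the start in 55 splicing factor genes and 4240 bp in 8256 of all genes. Neither set was limited to H3K4me3 at the start or to spans of at least 10 kb. Splicing factor genes were shorter (median span 14540 bp, against 24170 bp over all genes), and this distance was not compared within classes of span.

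**Figure D4:**
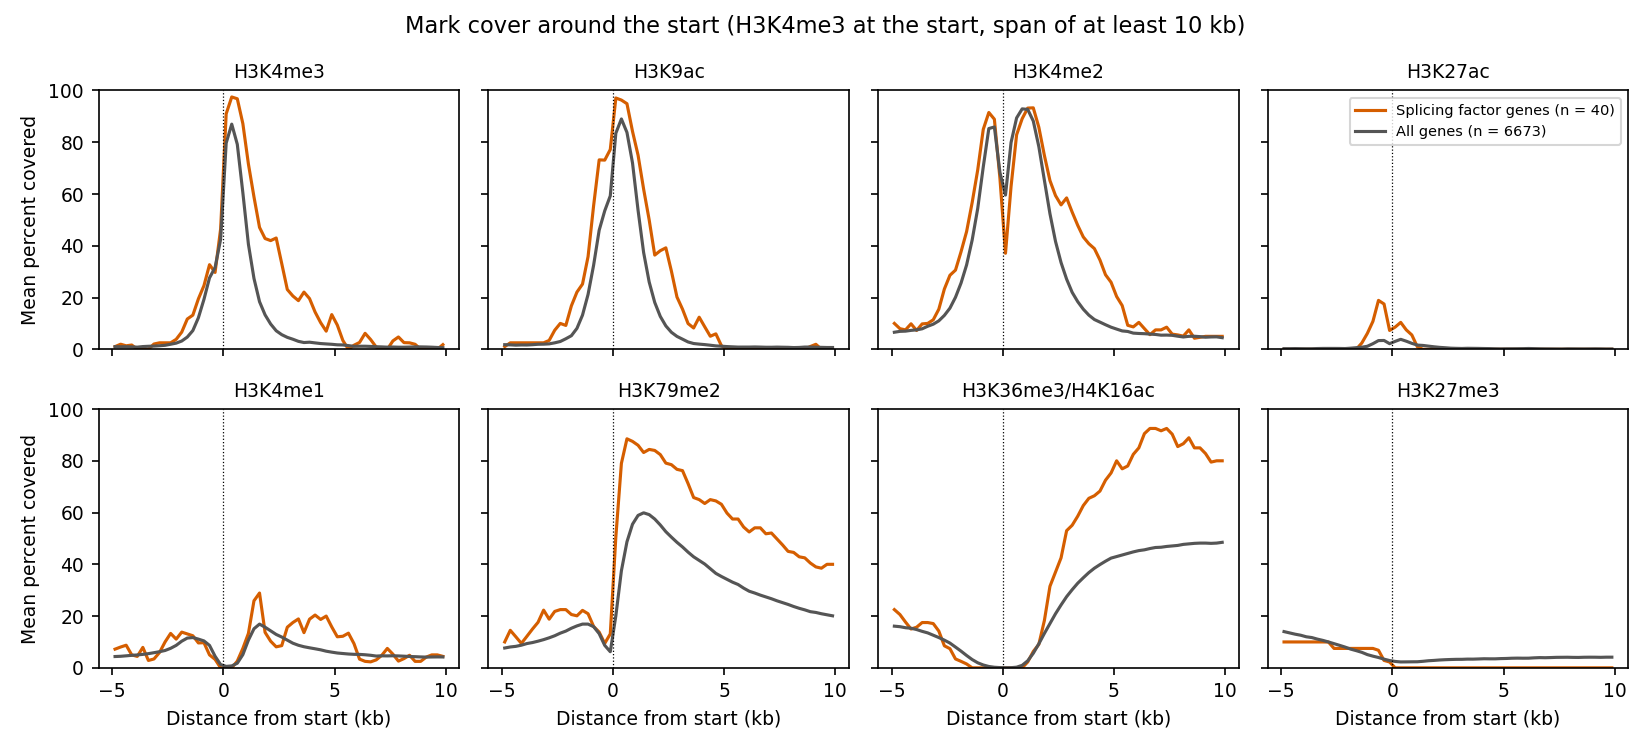
Mean percent covered in bins of 250 bp from 5 kb upstream to 10 kb downstream of the start, 1 panel per set, for 40 splicing factor genes (orange) and 6673 genes in all (grey) with H3K4me3 at the start and a span of at least 10 kb; the dotted line is the start. H3K79me2 reaches 88.5% in the splicing factor genes and at most 59.9% in all genes, and the H3K36me3/H4K16ac curve reaches 92.5% against at most 48.5%.

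Within the span, both body sets overlapped in splicing factor genes. Over the 64 genes with H3K79me2 in the span, a median of 59.8% of its cover also lay under H3K36me3/H4K16ac, against 18.8% in 7539 genes with H3K4me3 at the start and H3K79me2 in the span. Over genes with H3K4me3 at the start, the median cover of the span was 47.4% for H3K79me2 (8.45% in all such genes) and 80.1% for H3K36me3/H4K16ac (47.0%). The splicing factor genes were shorter, with a median span of 15960 bp against 30150 bp, and a fixed length of cover is a larger share of a short gene. Within classes of span the differences stayed: below 10 kb the H3K79me2 medians were 54.9% in 18 splicing factor genes and 22.1% in all, from 10 to 25 kb 54.3% in 28 and 12.2%, from 25 to 50 kb 23.8% in 12 and 9.1%, and from 50 kb 34.0% in 5 and 3.98%. For H3K36me3/H4K16ac the medians in the same classes were 76.3% against 33.3%, 79.6% against 60.3%, 87.0% against 63.4%, and 86.8% against 33.9%.

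**Figure D5:**
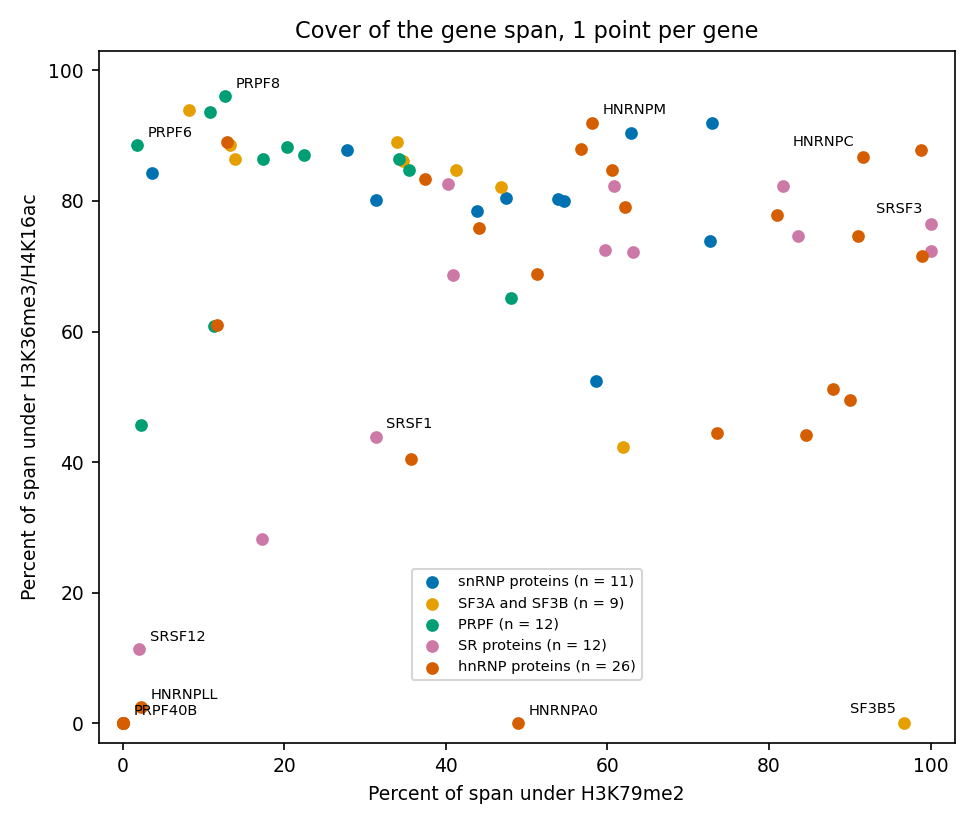
Percent of the gene span under H3K79me2 (horizontal axis) and under H3K36me3/H4K16ac (vertical axis) for the 70 genes, 1 point each, coloured by role. PRPF genes sit on the left at high H3K36me3/H4K16ac, SF3B5 and HNRNPA0 lie on the horizontal axis at 96.7% and 48.9% H3K79me2, and 6 genes (HNRNPA1L3, the HNRNPCL genes and PRPF40B) are at 0 for both.

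PRPF40B, a relative of the yeast factor Prp40 that bridges both ends of an intron, stood apart from the other PRPF genes. It had no H3K4me3, H3K79me2 or H3K36me3/H4K16ac over the span and 5 kb. H3K27me3 covered 22.7% of its span and 8855 bp with the flanks, 355 bp of it within 1 kb of the span start. The start of the promoter table lies 915 bp inside the span. Read there, 6 of the 70 genes had H3K27me3 within 1 kb in place of 7, and PRPF40B was not among them. H3K9ac was present as 1 region of 300 bp, from 505 to 804 bp downstream of the span start. This region overlapped the sequence printed above. Within 5 kb of the span start lay 3000 bp of H3K4me2 and 750 bp of H3K4me1. Only 33 of all genes (0.165%) held this combination. FAM186B overlaps the PRPF40B span, so the intervals there cannot be assigned to 1 gene.

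HNRNPH1, which binds runs of guanosine, had no H3K4me3 or H3K9ac within 1 kb of its annotated start. An H3K79me2 region of 300 bp lay there, and an H3K4me2 region of 1050 bp that ended 1533 bp downstream of the start. Inside its span of 20607 bp the nearest H3K4me3 region began 10984 bp downstream of that start and was 3600 bp wide, with an H3K9ac region of 4950 bp from 9784 bp and an H3K27ac region of 300 bp from 10384 bp. H3K79me2 covered 35.7% and H3K36me3/H4K16ac 40.4% of the span, with mean positions at 67.7% and 79.8% of the way from start to end, the former the farthest downstream of the 57 genes measured. H3K4me3, H3K9ac and H3K27ac of HNRNPH1 were thus far from its annotated start, and H3K4me2 and H3K79me2 were found both near it and farther on. The other members of its family, HNRNPH2, HNRNPH3 and HNRNPF, had 3000, 3893 and 2665 bp of H3K4me3 within 5 kb of the start.

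HNRNPA0 had H3K4me3 (2700 bp), H3K9ac (3150 bp), H3K27ac (450 bp) and H3K79me2 (4350 bp) within 5 kb of the start and 48.9% of its span under H3K79me2, but no H3K36me3/H4K16ac over the span and 5 kb. HNRNPLL, known for the splicing of CD45 in lymphocytes, had H3K4me3 (1350 bp) but only 2.20% of its span under H3K79me2 and 2.44% under H3K36me3/H4K16ac. Its paralog HNRNPL, which binds CA repeats, stood at 44.1% and 75.9%.

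The remaining exceptions were copies of other hnRNP genes. HNRNPCL1, HNRNPCL2, HNRNPCL3 and HNRNPCL4 have PRAME family genes as their nearest neighbours on chromosome 1 and resemble HNRNPC, and HNRNPA1L3 resembles HNRNPA1. HNRNPA1L3, HNRNPCL1 and HNRNPCL2 had no active set and 100.0% of the span under H3K27me3, and HNRNPCL3 and HNRNPCL4 had none of the 8 sets. Near-identical copies may share reads; how far reads could be placed in these genes was not measured here, and their values are uncertain. HNRNPA1L2 differed, with 750 bp of H3K4me3 at the start and 61.0% of its span under H3K36me3/H4K16ac. Without the 6 HNRNPCL and HNRNPA1L genes, H3K27me3 within 1 kb of the start was found at 4 of 64 genes (6.25%).

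Those 4 were PRPF18, PRPF40B, SNRPB2 and HNRNPLL. In PRPF18, SNRPB2 and HNRNPLL the H3K27me3 stopped short of the span: each had 0.0% of it covered, with 4536, 8539 and 4428 bp in the 5 kb on either side and 536, 975 and 428 bp within 1 kb of the start. All 3 had H3K4me3 at the start, of 1050, 900 and 1350 bp. PRPF18 is overlapped by FRMD4A, and the nearest other gene lies 5793 bp from SNRPB2 (OTOR) and 63185 bp from HNRNPLL (GALM). H3K27me3 elsewhere within the 5 kb was found at SNRPF (3049 bp), SRSF1 (2246 bp), SF3B3 (168 bp) and SRSF8 (124 bp). The H3K27me3 of genes with H3K4me3 at the start was thus outside the gene span in all 7 cases.

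Neighbouring genes bear on windows of 5 kb. Of the 70 genes, 43 had another protein-coding gene within 5 kb and 27 did not. Among the 27, H3K4me3 over the span and 5 kb was found at 23 (85.2%, against 45.1% of 8947 genes without a neighbour), H3K79me2 at 23 (85.2%, against 34.7%), H3K36me3/H4K16ac at 22 (81.5%, against 40.8%), H3K27ac at 6 (22.2%, against 7.71%) and H3K27me3 at 6 (22.2%, against 56.8%). Each of these 5 shares stood on the same side of its background as among all genes. At 15 of the 61 genes with a known strand the start of a gene on the opposite strand lay within 1 kb. The H3K4me3 region reached the opposite start in some of them and not in others: in PRPF4 it extended 907 bp upstream, past the start of CDC26, and in SNRPA 102 bp, short of the start of ACTMAP at 726 bp. The closest were PRPF4 with CDC26 (86 bp), SRSF9 with DYNLL1 (94 bp) and PRPF31 with TFPT (97 bp).

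The promoters were compared by sequence in the window of 300 bases from 250 before to 50 after the start of the promoter table, for 61 splicing factor genes and 15813 of all genes. That start differed from the end of the gene span at which the marks were read in 7 of the 61: by 15684 bp in SRSF11, 915 bp in PRPF40B, 329 bp in HNRNPF, 282 bp in SNRPG, 248 bp in SNRPE, 237 bp in HNRNPDL and 65 bp in SF3B1. The median was 28 CpG per window in splicing factor genes, 22 in all genes and 27 in the 8351 with H3K4me3 at the start; the observed to expected ratio was 0.943, 0.763 and 0.864. Both strands were searched for 8 short motifs, and the letters TATAAA, for example, are a description and not a site. Overlaps between motifs were not removed. CCGGAAG, the core bound by ETS factors, was in 20 of 61 windows (32.8%, against 14.2% of all and 22.1% of those with H3K4me3). CCAAT (NF-Y box) was in 28 (45.9%, against 36.3% and 37.4%), CACGTG (E-box) in 8 (13.1%, against 8.87% and 10.6%), and AAGATGGC (YY1) in 4 (6.56%, against 3.91% and 6.24%).

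GGGCGG (GC box) was in 36 windows (59.0%), near the 58.5% of all windows and below the 73.8% of those with H3K4me3. TATAAA, the core element bound by TBP, was in 6 (9.84%, against 9.64% and 4.86%): HNRNPAB, HNRNPC, HNRNPD, SNRPC, SRSF3 and SRSF11, the last in a window far from where its marks were read. GCGCATGC (NRF1 core) was in 2 (3.28%, against 4.26% and 6.18%), and TGACGTCA (CRE) in 0 of 61 (2.59% and 3.65%). By group, CCGGAAG was found in 7 of 10 snRNP windows and 6 of 8 of SF3A and SF3B, but in 3 of 23 hnRNP windows, 2 of 11 SR windows and 2 of 9 PRPF windows. CACGTG was the other way round, with 7 of its 8 windows in hnRNP genes and the remaining 1 in SF3B1.

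Other genes of the pathway were read from 3 lists. Of 63 further genes of the spliceosome and of snRNP assembly, 60 had H3K4me3 at the start (50.6% of all genes) and 53 H3K79me2 there (35.0%). The H3K36me3/H4K16ac set lay over the span and 5 kb of 62 (56.3% of all genes). At the start, 10 had H3K27ac (6.02% of all genes) and 1 (CRNKL1) H3K27me3 (28.6%). Those without H3K4me3 at the start were CRNKL1, GEMIN4 and U2AF1. CRNKL1 and GEMIN4 had H3K4me3 elsewhere in the gene, over 5.54% and 16.5% of the span. U2AF1, which recognises the 3′ splice site, had none of the 8 sets over the gene or near its start; it has a near-identical copy in this build, so that value is uncertain. Of 9 kinases and import factors of SR proteins, 6 had H3K4me3 at the start, not far from the 50.6% of all genes. The others were CLK3, SRPK2 and SRPK3. Over the span and 5 kb, H3K4me3 was at 8 of the 9 (58.4% of all genes) and H3K36me3/H4K16ac at 9 (56.3%). In CLK3, H3K4me3 covered 13.7% of the span, H3K79me2 30.9% and H3K36me3/H4K16ac 60.5%.

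The third list, 28 splicing regulators known for restricted tissue expression, had H3K4me3 and H3K79me2 less often than the 70 splicing factor genes and H3K27me3 more often in these counts. H3K4me2 was at the start of 19, near the share of 66.0% in all genes. Of the 28, 11 had H3K9ac at the start (54.2% of all genes) and 9 had H3K4me3 there (50.6% of all genes). The latter were ESRP1, KHDRBS2, KHDRBS3, MBNL3, PTBP2, PTBP3, QKI, RBFOX2 and RBM38. H3K79me2 was at the start of 3 (PTBP2, PTBP3 and QKI), against 35.0% of all genes. Over the span and 5 kb H3K79me2 was at 9 of the 28, against 47.6% of all genes. MBNL1 had none within 1 kb of its start but the highest H3K79me2 cover of the list, 75.6% of the span. H3K27me3 was at 17 starts, against 28.6% of all genes. A median of 44.8% of the span lay under H3K27me3, against 0.0% over all genes. H3K27me3 covered 100.0% of NOVA2 and RBM24 and 97.8% of RBFOX3, regulators known from neurons or muscle. Among the 70 splicing factor genes the same mark was within 1 kb of 7 starts and covered a median of 0.0% of the span.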

How the data were processed

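Chromatin of KBM-7 cells was crosslinked with formaldehyde, sonicated and immunoprecipitated, 1 library for each of 9 marks, with 3 inputs, per the labels' protocols. Per the submitters' processing notes, the tools were MACS, Bowtie2 and cutadapt and the build GRCh38, with no version; settings and thresholds are not given in the labels or the file. The deposited file is 1 list of intervals with a mark name and no other column: it holds no count, signal, fold or p-value, so the depth per library is unknown and no interval or floor can be given. The mark names of the list were matched to the libraries by title; 1 mark label of the list matched no sample and was not used, nor were the stretches the authors' list gives as free of marks.

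Interval starts were counted from 1 for 8 labels and from 0 for H3K27me3, as read from the 50 bp grid of the values, and were brought to the same count. Intervals of 1 mark that overlapped or touched were merged, and a merged stretch is called a region. Gene spans, gene starts and promoter sequences came from RefSeq tables (GRCh38.p14). A gene was counted with a mark where at least 1 bp of it lay in the window: the span with 5 kb on either side, or 1 kb on either side of the start. Strand was known for the 61 splicing factor genes found in the promoter table. With 1 library per mark there is no replicate and no test; counts and medians are set beside those over all 19974 protein-coding genes. The splicing factor genes and the comparison lists were chosen with earlier results of these data known. Genes named singly include the lowest and highest of each role group, all genes with H3K27ac or H3K27me3 and all genes without the 3 start marks, and those singled out beyond these were chosen after their values were seen. The procedure was tested on simulated data. Alternatives covered the windows, the minimum overlap, wider regions, genes without neighbours and the exclusion of near-identical copies. Python 3.11.15, numpy 2.4.6, pandas 2.3.3 and matplotlib 3.10.9 were used. The values of 1 splicing factor gene and 1 marker gene are counted in the totals but not reported singly here.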

Additional observations from a re-analysis of the deposited data

How the results depend on the processing

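No paired analysis was possible because each mark has 1 library and no result comes from a test, and no replicate could be left out. Of 147 alternative values for 20 results (shares of splicing factor genes with a mark, and medians of their cover), 128 stayed within 1.5 times the reported value and 19 did not; the median cover by H3K27me3 was 0 throughout. H3K4me3, H3K9ac, H3K4me2, H3K79me2 and the wide cover by H3K36me3/H4K16ac were among those that stayed.

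H3K27ac over the span and 5 kb fell from 28.6% to 14.3% for the span alone, to 11.4% with at least 500 bp of overlap and to 11.4% with the wider regions; within 1 kb of the start it fell from 25.7% to 10.0% and 11.4% under the latter pair. H3K4me1 over the span and 5 kb was 44.3% with the wider regions. H3K4me1 at the start was 7.14% within 500 bp, 58.6% within 2.5 kb, 5.71% with at least 500 bp of overlap, 8.57% with the wider regions and 7.41% for genes without a neighbour. H3K36me3/H4K16ac at the start was 51.4% within 2.5 kb, 80% when either end of the gene counted, 7.41% for genes without a neighbour and 3.28% for genes with a strand, an alternative chosen after seeing the data. H3K27me3 over the span and 5 kb was 5.71% for the span alone and 10.0% with a flank of 1 kb. H3K27me3 at the start was 18.5% for genes without a neighbour and 6.25% without the HNRNPCL and HNRNPA1L genes. These changes follow from the window, overlap or genes that each alternative used.

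A called interval gives presence only: without counts, weak marks below the authors' threshold cannot be told from absent ones, and a mark's share depends on a depth that is unknown. Intervals shared with a neighbouring gene cannot be assigned to 1 of them.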
